A study of Mus musculus with 360 samples.

Results

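The 7 genes described here encode the parts of the hair cell's mechanotransduction machinery: Tmc1, Tmc2, Lhfpl5, Tmie, Cib2, Pcdh15 and Cdh23. They were taken by gene symbol from the 48440 genes of a matrix of single-cell counts, and each symbol was found. Measured were 360 single cells of the mouse cochlea, deposited as 1 sample each, with 180 cells per genotype. Control cells came from Fbxo2CreERT2::Rosa26-tdTomato mice, in which a tamoxifen-inducible Cre expressed from the Fbxo2 locus switches on the red reporter tdTomato. GAP cells came from Fbxo2CreERT2::Rosa26-tdTomato::Rosa26-GAP mice, in which the same Cre turns on a further allele that carries Gfi1, Atoh1 and Pou4f3, transcription factors of developing hair cells. Both genotypes therefore carried the Cre and the reporter, both received tamoxifen at 3 weeks of age, and the cells of both were harvested at 5 weeks. Which cells recombine depends on the Fbxo2 locus, and cells were sorted on tdTomato and on EpCAM, an epithelial surface protein.

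A hair cell converts sound into current at the tips of its stereocilia. A tip link runs from each stereocilium to its taller neighbour, with Cdh23, cadherin 23, forming the upper part of the link and Pcdh15, protocadherin 15, the lower part. At the lower end Pcdh15 is joined to the channel, whose pore is formed by Tmc1 or Tmc2. In the cochlea Tmc2 belongs to the first days after birth, and Tmc1 is the pore of the mature cell. Lhfpl5 is a membrane protein that connects Pcdh15 to the channel, Tmie is a small membrane protein needed for a working channel, and Cib2 is a calcium-binding protein attached to the Tmc proteins. Loss of any of these parts other than Tmc2 causes deafness in mice. A complete set was therefore counted as 6 parts in 1 cell, namely the pore (Tmc1 or Tmc2), Lhfpl5, Tmie, Cib2, Pcdh15 and Cdh23.

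Because no animal is named for any cell, a genotype is 1 sample here. No test was made between genotypes, and the 95% intervals below cover counting error alone. Counts are unique molecular identifiers (UMIs), tags that let copies made by amplification be counted once, and a level is given as the UMIs of a gene among 1000000 UMIs (CPM) of the pooled cells. Each cell title carries a letter, which is A for 91 and B for 89 of the control cells, and C for 92 and D for 88 of the GAP cells. What the letters stand for is not given. They are the only split of a genotype that the labels offer, and the effect of a letter cannot be told apart from that of the genotype. Depth differed between the genotypes, with a median of 21280 UMIs per control cell (range 6985 to 55129) and 28963 per GAP cell (8550 to 60218). Shares of cells are therefore also given at 8000 UMIs per cell, as the share expected after thinning every cell to that depth, which leaves out 3 control cells and 0 GAP cells. The authors' deposited annotation puts 341 cells into 9 numbered clusters, which may have been formed with the genes described here, so values by cluster are a description.

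Promoter sequences are shown for 4 of the 5 genes at higher levels in GAP cells, which carry the Atoh1 transgene, since Atoh1 belongs to a class of factors that bind E-boxes such as CAGCTG and CAGATG. RefSeq (build GRCm38.p6) lists a window of 250 bases before to 50 bases after the start for 6 of the 7 genes, all but Tmc2. CAGCTG, which reads the same on both strands, was present in 3 of the 6 windows, starting 234 bases before the start of Lhfpl5, 206 bases before that of Tmie and at base 9 of the transcript of Pcdh15. The RefSeq start used for Pcdh15 lies 722525 bases inside the gene as GENCODE M21 places it. CAGATG, searched on both strands, was in 0 of the 6. Of 32851 RefSeq windows of 300 bases, 16.3% held CAGCTG and 17.2% held CAGATG, and a match is a description of letters and not of a binding site. The sequences below read 5′ to 3′ on the strand of the gene, stop where the annotated gene of GENCODE M21 begins, and have the match to CAGCTG in capitals. They lie at chr17:28575469-28575640 on the plus strand for Lhfpl5, and on the minus strand at chr9:110880114-110880323 for Tmie, chr9:54560219-54560440 for Cib2 and chr19:20954203-20954452 for Tmc1. Lhfpl5 and Tmie carry the match and Cib2 and Tmc1 do not. Cdh23, the fifth gene with higher levels in GAP cells, has no match either and is not printed.
Lhfpl5: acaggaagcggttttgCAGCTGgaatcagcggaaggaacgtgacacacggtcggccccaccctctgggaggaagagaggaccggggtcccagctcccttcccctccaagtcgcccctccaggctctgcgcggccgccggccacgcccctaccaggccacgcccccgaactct
Tmie: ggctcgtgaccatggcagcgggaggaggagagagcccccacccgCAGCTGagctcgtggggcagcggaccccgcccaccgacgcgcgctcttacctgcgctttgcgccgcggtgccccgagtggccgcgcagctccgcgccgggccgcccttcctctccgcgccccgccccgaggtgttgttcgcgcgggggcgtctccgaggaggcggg
Cib2: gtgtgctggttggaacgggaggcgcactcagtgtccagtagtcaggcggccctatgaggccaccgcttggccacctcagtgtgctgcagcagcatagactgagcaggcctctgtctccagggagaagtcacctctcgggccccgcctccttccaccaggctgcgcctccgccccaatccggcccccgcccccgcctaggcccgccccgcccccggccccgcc
Tmc1: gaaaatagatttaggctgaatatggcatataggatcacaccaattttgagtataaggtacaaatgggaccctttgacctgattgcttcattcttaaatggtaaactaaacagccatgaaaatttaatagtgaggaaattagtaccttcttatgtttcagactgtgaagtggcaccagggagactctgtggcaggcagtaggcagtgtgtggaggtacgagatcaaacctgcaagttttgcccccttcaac

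Of the 7 genes, 5 were at least 2-fold higher in GAP cells, Pcdh15 was present at a similar level in both genotypes, and Tmc2 had 0 UMIs in all 360 cells. Among 10152 genes at 10 CPM or more in a genotype, 13% were at least 2-fold higher in GAP cells and 6.61% at least 2-fold lower (log2 ratio of 1 or more, or -1 or less, with 1 CPM added to each level). Tmc1, Lhfpl5, Tmie, Cib2 and Cdh23 were among the higher ones, and none of the 6 genes with UMIs was among the lower ones. Tmc1, Lhfpl5 and Cdh23 were under 10 CPM in control cells, so they were compared through their GAP level and could not be called lower. The median log2 ratio of these 6 genes was 4.0, and that of all genes compared was 0.10.

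Tmc1, the pore of the mature channel, lies at chr19:20783458-20954202 (mm10, minus strand). Its level was 1.51 CPM in letter A, 1.98 in letter B, 54.9 in letter C and 20.5 in letter D. Both GAP letters were above both control letters, and the GAP letters differed from each other 2.68-fold (1.94 to 3.75). Pooled, Tmc1 was at 39.3 CPM in the GAP cells (34.2 to 45, 211 UMIs) and 1.75 CPM in the control cells (0.703 to 3.60, 7 UMIs), which is 22.5-fold (10.7 to 56.6). Without letter C the ratio was 11.7. A Tmc1 UMI was found in 55 of 180 GAP cells (30.6%) and in 4 of 180 control cells (2.22%). At 8000 UMIs the shares were 14.2% (9.43 to 20.1) and 1.21% (0.164 to 4.15).

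Tmc2 (chr2:130195194-130264445, mm10, plus strand), the pore of the immature cochlear hair cell, had 0 UMIs in the 4001274 UMIs of the control cells and in the 5366362 of the GAP cells. A count of 0 allows up to 3 counts, or 0.559 CPM, over the GAP cells, and a share of up to 1.67% of them with a UMI. The pore in every cell counted below is therefore Tmc1.

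Lhfpl5 (chr17:28575641-28585679, mm10, plus strand), the connector between Pcdh15 and the channel, was found in no control cell. Its level was 55.6 CPM in letter C (18 cells) and 36.1 CPM in letter D (9 cells), against 0 UMIs in letters A and B. Over the GAP cells this is 46.8 CPM (41.2 to 52.9), at least 62.4-fold higher than the 3 counts that the control cells could hold unseen; with the counting error of both levels the lower end of the 95% interval is 50.4-fold. The share of GAP cells with a UMI was 15% (10.1 to 21.1), and 7.10% (3.81 to 11.9) at 8000 UMIs, the lowest of the 6 genes with UMIs. In control cells the share was 0 of 180, which allows up to 1.67%.

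Tmie (chr9:110865711-110880113, mm10, minus strand), the small membrane protein of the channel, was already present in some control cells. Its level was 27.2 CPM in letter A, 12.4 in letter B, 99.7 in letter C and 88.7 in letter D. The control letters differed from each other 2.20-fold (1.34 to 3.68), the GAP letters by no more than counting error, and no control letter reached a GAP letter. Pooled levels were 94.7 CPM in GAP cells (508 UMIs) and 19.7 CPM in control cells (79 UMIs), a ratio of 4.79 (3.78 to 6.16) that became 7.64 without letter A. A UMI was found in 56.7% of GAP cells (36.9% at 8000 UMIs) and in 28 control cells (15.6%, 9.91% at 8000 UMIs). Of the exons of Tmie, 244 bases (7.89%) overlap those of Als2cl on the other strand, and whether counting used strand is not given in the sources used here, so reads from the overlap cannot be told apart. The level of Als2cl was 74.9 CPM in the GAP cells and 22.7 CPM in the control cells. Of the GAP cells with Tmie, 61 also held Als2cl and 41 did not, and 42 GAP cells held Als2cl without Tmie.

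Cib2 (chr9:54544794-54560218, mm10, minus strand), the calcium-binding partner of the Tmc proteins, had the highest level of the 7 genes per length of exon in GAP cells. Its level was 10.1 CPM in letter A, 17.8 in letter B, 247 in letter C and 277 in letter D. The GAP letters lie close together and far above the control letters. The pooled ratio was 18.6 (14.3 to 24.8), from 1399 UMIs in GAP and 56 in control cells. A Cib2 UMI was found in 81.7% of GAP cells (62.5% at 8000 UMIs) and in 21 control cells (11.7%, 6.15% at 8000 UMIs), and 15 of the 56 control UMIs were in 1 cell. Exons of Cib2 share 227 bases (15.8%) with those of Sh2d7 on the other strand, which held 1 UMI in control and 10 in GAP cells.

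Pcdh15 (chr10:73099342-74649737, mm10, plus strand), the lower part of the tip link, stood apart from the other genes in being high in control cells. Its level was 212 CPM in letter A, 240 in letter B, 275 in letter C and 299 in letter D. The letters of each genotype lie within 1.13-fold of each other, and the pooled ratio of GAP to control was 1.26 (1.16 to 1.37). When every cell had the same weight, as in the mean of per-cell CPM, the ratio was 1.07. After thinning it was 1.12, which is the same mean without the 3 control cells under 8000 UMIs. A UMI was found in 81.7% of GAP cells and 76.7% of control cells. At 8000 UMIs the shares were 65.9% (58.5 to 72.8) and 61.1% (53.5 to 68.3), whose intervals overlap.

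Cdh23 (chr10:60302748-60696490, mm10, minus strand), the upper part of the tip link, was nearly absent from control cells. Its level was 6.05 CPM in letter A, 0.991 in letter B, 107.8 in letter C and 75.9 in letter D. Both GAP letters were above both control letters, and letter C was 1.42-fold above letter D (1.18 to 1.71). Pooled, Cdh23 had 501 UMIs in GAP cells (93.4 CPM) and 14 in control cells (3.50 CPM), and the ratio was 26.7 (15.8 to 49.2). A single control cell of letter A, the deepest of the control cells with 55129 UMIs, held 11 of the 14 control UMIs. The ratio was 94.2 without letter A, 15.4 without letter B, 103.4 when the cell with most Cdh23 UMIs was left out of each genotype, and 49.8 as the ratio of mean per-cell CPM. A UMI was found in 70 GAP cells (38.9%, 18.5% at 8000 UMIs) and in 3 control cells (1.67%, 0.779% at 8000 UMIs). The 2 cadherins of the same link thus differed in the control cells, where Pcdh15 had 905 UMIs and Cdh23 14.

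**Figure D1:**
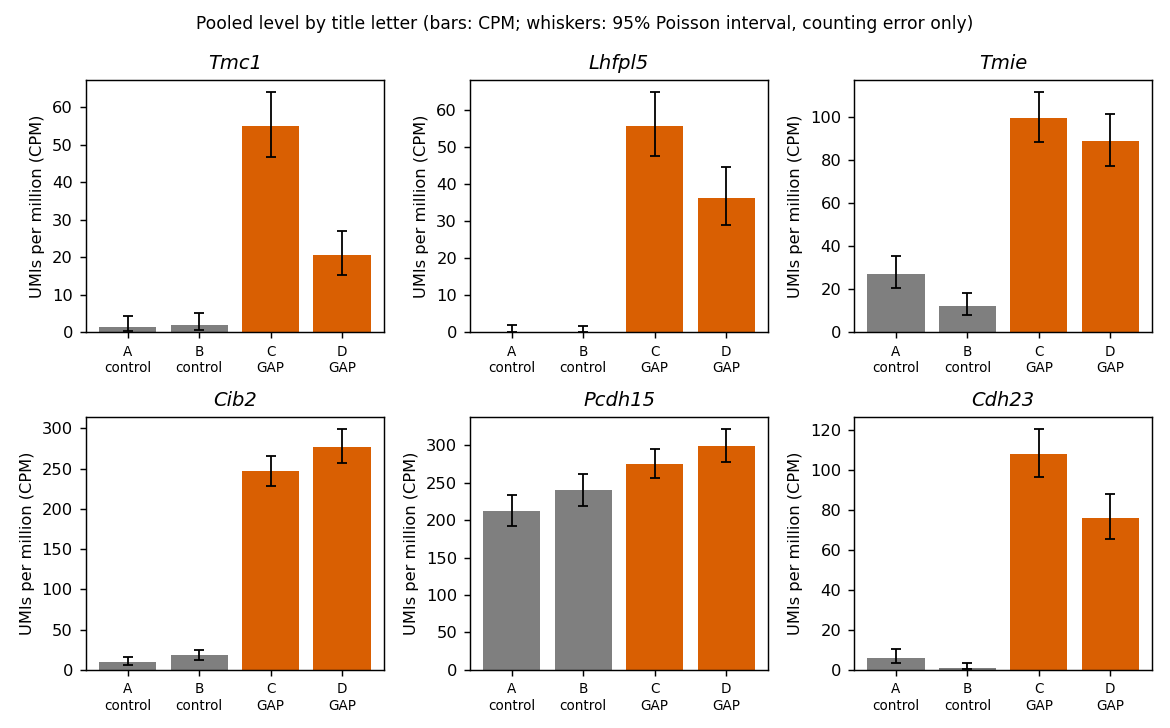
Pooled level of 6 genes in CPM (vertical axes, which differ in range) for the cells of title letters A and B (control, grey) and C and D (GAP, orange); whiskers are 95% Poisson intervals and cover counting error only. Both GAP bars stand above both control bars in each panel, and the ratio between them is smallest for Pcdh15 (212 and 240 CPM against 275 and 299).

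Levels were compared between genes only per length of merged exons, since priming along the whole transcript gives a longer gene more UMIs. One RNA molecule can thus give several UMIs, which the intervals treat as independent. In GAP cells the order was Cib2 at 182 CPM per kilobase, Tmie at 30.6, Lhfpl5 at 19.6, Pcdh15 at 12, Cdh23 at 5.51 and Tmc1 at 5.47. Cdh23 and Tmc1, neighbours at the bottom of this order, are equal within counting error. In control cells Cib2 at 9.77 and Pcdh15 at 9.51 CPM per kilobase were the highest, followed by Tmie at 6.38, and Tmc1 and Cdh23 were at 0.243 and 0.207. Cib2 has the shortest exons of the 7 genes (1.433 kilobases) and Pcdh15 the longest (23.773 kilobases), so the order by CPM, in which Pcdh15 comes first, is another one. Merged exons join those of all annotated transcripts of a gene, which can be longer than the RNA present. The order per kilobase depends on this length, and no length of a single transcript was tried.

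The authors' clusters divide the GAP cells into sets with different parts of the machinery. Cluster 2, named Reprogrammed Hair Cells, holds 51 GAP cells, and cluster 1, named Reprogammed Sup Cells 1, holds 54. All 9 genes of a hair cell marker list (Myo6, Otof, Pvalb, Calb2, Ccer2, Ptprq, Lhx3, Slc17a8 and Espn) had UMIs in both clusters, and their summed level was 6633 CPM in cluster 1 and 3514 CPM in cluster 2. This order came from Ccer2 (4659 and 1048 CPM), and the other 8 genes summed to 1974 CPM in cluster 1 and 2466 CPM in cluster 2. Without regard to these names, Tmc1, Lhfpl5 and Cdh23 were at least 2-fold higher in cluster 2 than in cluster 1, while Tmie and Pcdh15 were lower there. Of 10263 genes at 10 CPM or more in a cluster, 11.6% were at least 2-fold higher in cluster 2 and 8.97% at least 2-fold lower. Lhfpl5, under 10 CPM in cluster 1, could not be called lower in cluster 2. The median log2 ratio of the 6 genes was 1.44, against 0.05 for all genes compared.

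Lhfpl5 showed the largest ratio of the 6 genes between these clusters, with 92.8 CPM in cluster 2 (77.7 to 109.9) and 4.51 CPM in cluster 1 (1.95 to 8.88), a ratio of 20.6 (10.1 to 48.6). Cdh23 was at 177.9 and 32.7 CPM (5.44-fold, 4.08 to 7.37). Tmc1 was at 89.3 and 21.4 CPM (4.17-fold, 2.88 to 6.16). For Cib2 the levels were 447.9 and 245.1 CPM, a ratio of 1.83 (1.62 to 2.07). In the other direction, Tmie was at 90.7 CPM in cluster 2 and 136.9 in cluster 1, a ratio of 0.662 (0.531 to 0.822), and Pcdh15 had 272.8 and 378.6 CPM (0.720-fold, 0.634 to 0.817). So the cluster with more of the pore, the connector and the upper tip link had less of Tmie and of the lower tip link. Each of these 6 directions was the same within letter C and within letter D. For Lhfpl5 in letter D, most UMIs of cluster 2 were in 1 cell, which held 17, and the direction without this cell was not computed. A Lhfpl5 UMI was found in 8 cells of cluster 2 and in 7 of cluster 1. In cluster 2, 4 cells held 94% of the Lhfpl5 UMIs. The size differed for the genes with few cells: Lhfpl5 had ratios of 38.1 in letter C and 6.0 in letter D, and Tmc1 6.31 and 2.37.

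Shares of cells at 8000 UMIs separated the clusters less than the levels did. A Lhfpl5 UMI was expected in 10.8% of cluster 2 cells (3.82 to 22.6) and 3.02% of cluster 1 cells (0.258 to 11.7), intervals that overlap. For Tmc1 the shares were 24.9% and 13.7%, and for Cdh23 26.7% and 13.6%, again with overlapping intervals. Tmie was expected in 41% and 49.5%, Cib2 in 83.7% and 74.1%, and Pcdh15 in 65% (50.3 to 77.8) and 81.8% (68.9 to 90.9). Before thinning, Cdh23 was found in 43.1% of cluster 2 cells and 42.6% of cluster 1 cells, near-equal shares at levels that differ 5.44-fold. In cluster 1, 19 of the 23 cells with Cdh23 held 1 UMI, and 33 of the 58 UMIs were in 1 cell.

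Within cluster 2 the cells of the 2 letters were not alike. A Tmc1 UMI was found in 65% of the 20 cells of letter C and in 32.3% of the 31 cells of letter D. Lhfpl5 was at 201 and 21.8 CPM, and Cdh23 at 299 and 98.6 CPM. Cib2 and Tmie were closer, at 488 and 422 CPM and at 99.6 and 84.8 CPM, and Pcdh15 was higher in letter D, at 293 against 241 CPM. The median depth was 28205 UMIs in letter C (range 16001 to 41139) and 28271 in letter D (11514 to 44672).

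In the other clusters, GAP cells held few UMIs of Tmc1 and Lhfpl5, in sets of at most 20 cells. For Lhfpl5 these few UMIs did not go with a lower share of cells in cluster 7. Lhfpl5 with Pcdh15 was found in 15% of its cells, against 13% in cluster 1 and 15.7% in cluster 2, without thinning. Cluster 7, named Reprogrammed Supp Cells 2, consists of 20 GAP cells with a median of 15521.5 UMIs, and its closest namesake among the control cells is cluster 4, named WT Supp Cells, with 29 control cells and a median of 13693. Cib2 had 40 UMIs in cluster 7 (in 15 of 20 cells) and 0 UMIs in the control cells of cluster 4, at least 17.9-fold higher, with 13.9 as the lower end of the 95% interval. Pcdh15 was equal within counting error, at 339 and 375 CPM, a ratio of 0.905 (0.709 to 1.15). Tmie had 12 UMIs in cluster 7 and 2 in those control cells, a ratio of 8.05 (1.79 to 74.1). Tmc1 had 1 UMI in cluster 7, Lhfpl5 3 and Cdh23 7, against 0 UMIs of each in the control cells of cluster 4. In cluster 7 the channel gene Cib2 was present in most cells, and the pore in 1 cell.

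Pcdh15 varied between clusters more than between genotypes. In control cells it was at 375 CPM in cluster 4, 284 in cluster 0, 185.5 in cluster 5, 177.1 in cluster 6 and 105.04 in cluster 3. Clusters 5 and 6 are equal within counting error, and the other neighbours in this order have intervals that do not overlap. Cluster 5, named Reprogrammed Unknown 1, is the 1 cluster with at least 10 cells of each genotype, 13 and 13. There Pcdh15 was at 42.7 CPM in GAP cells (15 UMIs) and 185.5 CPM in control cells (62 UMIs), a ratio of 0.230 (0.122 to 0.409) and the reverse of the direction over all cells. The supporting cell markers differed in the same direction between these cells, at 2355 CPM in the GAP cells and 11921 CPM in the control cells, and their part in the Pcdh15 ratio was not tested. Of these GAP cells 11 were of letter C and 2 of letter D. The other genes had 2 to 8 UMIs in the GAP cells of cluster 5. In the 10 GAP cells of cluster 8, named Reprogrammed Unknown 2, Pcdh15 was at 20.5 CPM, and Tmc1, with 4 UMIs, was found in 1 cell.

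GAP cells that the authors placed among control cells, 15 in clusters 0, 3, 4 and 6, held fewer parts than GAP cells as a whole. At 8000 UMIs the mean number of parts expected in them was 1.02, against 2.05 over all GAP cells. In the control cells of these clusters it was 0.81. Without thinning, 10 of the 15 GAP cells held 2 or more parts, 1 held 5 parts and 3 held both cadherins. Of the control cells of these clusters, 1 held both cadherins and none held more than 3 parts. In the 15 GAP cells the Cib2 level was 43.7 CPM and the Pcdh15 level 145.6 CPM, with 1 UMI of Tmc1 (2.91 CPM) and 3 of Lhfpl5 (8.74 CPM). The 17 GAP cells without a cluster were the deepest set, with a median of 49455 UMIs, and 14 of them were of letter C. They held Lhfpl5 at 114.3 CPM, Cdh23 at 178.9, Tmie at 115.4, Cib2 at 287, Pcdh15 at 327 and Tmc1 at 41.6. No doublet caller was run on these cells, and the part of doublets in these values was not tested.

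**Figure D2:**
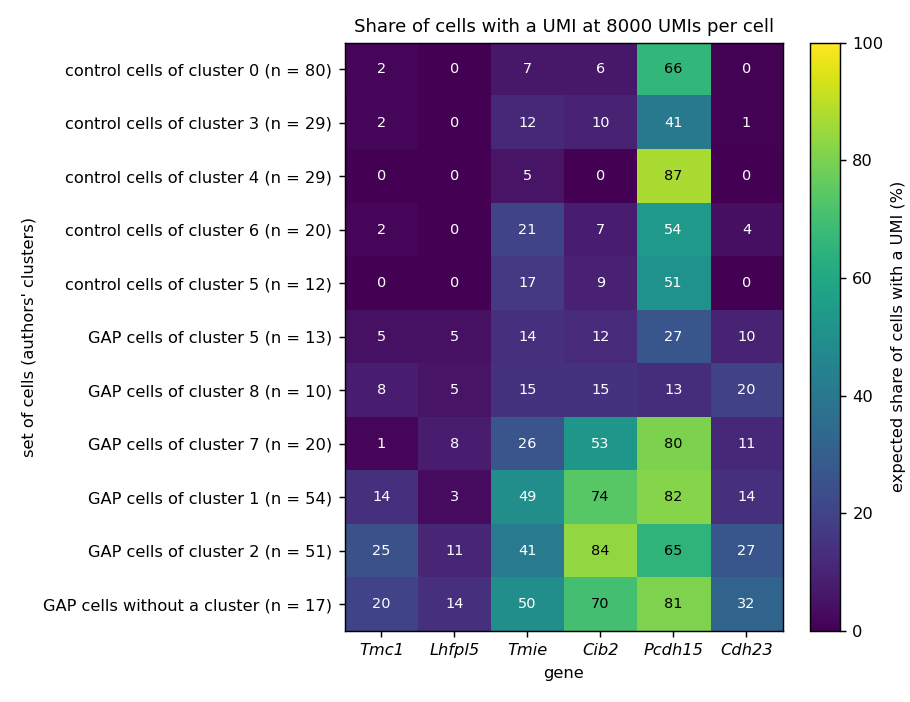
Expected share of cells with a UMI of each gene (colour and printed whole percent) after thinning every cell to 8000 UMIs, by the authors' cluster and genotype, for sets of at least 10 cells; n is the number of cells with that depth. The Pcdh15 column is bright in control cells of cluster 4 and in GAP cells of clusters 1 and 2, and darker in GAP cells of clusters 5 and 8. Cib2 is bright in GAP cells of clusters 1, 2 and 7 and in those without a cluster. Tmc1, Lhfpl5 and Cdh23 stay under 40% in every row.

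The complete set was counted in single cells next, since pooled levels do not show whether 1 cell holds every part. Of 180 GAP cells, 9 held at least 1 UMI of each of the 6 parts, a share of 5% (2.31 to 9.28, Clopper-Pearson). No control cell did, as none held Lhfpl5. A count of 0 allows a share of up to 1.67%, and no control cell held more than 3 parts. Because Tmc2 had 0 UMIs, 0 cells held all 7 genes. With at least 2 UMIs asked of each part, 6 cells remained.

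Of the 9 cells, 7 were of letter C and 2 of letter D. In the authors' annotation 6 belong to cluster 2, where they are 11.8% of the cells (4.44 to 23.9), 1 to cluster 1, and 2 have no cluster. They held 26386 to 53886 UMIs, with a median of 37907 against 28963 over all GAP cells, and 3 of the 9 lay below the latter. At 8000 UMIs per cell the expected number of complete cells was 3.11 of 180, and at 16000 UMIs it was 5.63, with the 22 shallower cells left out. The count of 9 therefore depends on the depth of these libraries, and a part without a UMI cannot be called absent from a cell.

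The cell with the best sampled set, of cluster 2 and letter C, held 19 UMIs of Tmc1, 43 of Lhfpl5, 14 of Tmie, 29 of Cib2, 19 of Pcdh15 and 42 of Cdh23 in 35319 UMIs. Thinned to 8000 UMIs it would keep the complete set with a probability of 95.7%. A second cell of the same cluster and letter held 39 UMIs of Tmc1, 50 of Lhfpl5, 8 of Tmie, 42 of Cib2, 39 of Pcdh15 and 20 of Cdh23, with a probability of 84%. In the other 7 cells that probability was between 1.93% and 40.8%, because at least 1 part was thinly covered. The least covered part had 1 UMI in 3 of the 9 cells, Lhfpl5 in 2 of them (once together with Tmc1, once with Pcdh15) and Tmie in 1. The cell of cluster 1 was of the thin kind, with 1 UMI of Lhfpl5 and 1 of Pcdh15 beside 33 of Cdh23.

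All 9 complete cells held UMIs of Atoh1 (16 or more, median 29) and Pou4f3 (14 or more, median 47), and 8 of them held Gfi1. Over all GAP cells, 91.7% held Atoh1, 91.7% Pou4f3 and 77.8% Gfi1. Ptprq, a phosphatase of the connectors between stereocilia shafts, was in all 9 complete cells and in 69.4% of all GAP cells. Otof, the synaptic calcium sensor otoferlin, was in 8 complete cells and 38.9% of GAP cells, and Pvalb, the calcium buffer parvalbumin, in 8 and 26.1%. These shares are not at equal depth, and 6 of the complete cells are of cluster 2. In cluster 2 the level of Ptprq was 598 CPM, of Otof 265.8 and of Pvalb 144.7, against 309.9, 122.8 and 81.6 CPM over all GAP cells. Myo6, Lhx3, Slc17a8 and Espn were also higher in cluster 2 than over all GAP cells. Calb2 (2.77 against 17.3 CPM) and Ccer2 (1048 against 2422.5 CPM) were lower there. The part of depth and cluster in these shares was not tested, and the other hair cell markers were not counted in the complete cells. Slc26a5 (prestin) and Ocm (oncomodulin), genes of the mature outer hair cell, had 0 UMIs in all 9.

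By the number of parts, the genotypes overlapped from 0 to 3 parts and not above. GAP cells held a median of 3 parts, with 9 cells holding 0, 17 holding 1, 40 holding 2, 44 holding 3, 40 holding 4, 21 holding 5 and 9 holding 6. Control cells held a median of 1 part, with 30 cells holding 0, 34 holding 2, 5 holding 3 and all others 1. Depth moved with the number of parts: GAP cells with 0 parts had a median of 18694 UMIs, those with 3 parts 32455.5 and those with 5 parts 41457. At 8000 UMIs per cell the mean number of parts expected was 2.05 in GAP and 0.791 in control cells. Among GAP clusters this mean was 2.52 in cluster 2, 2.36 in cluster 1, 1.80 in cluster 7 and 0.754 in cluster 8.

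**Figure D3:**
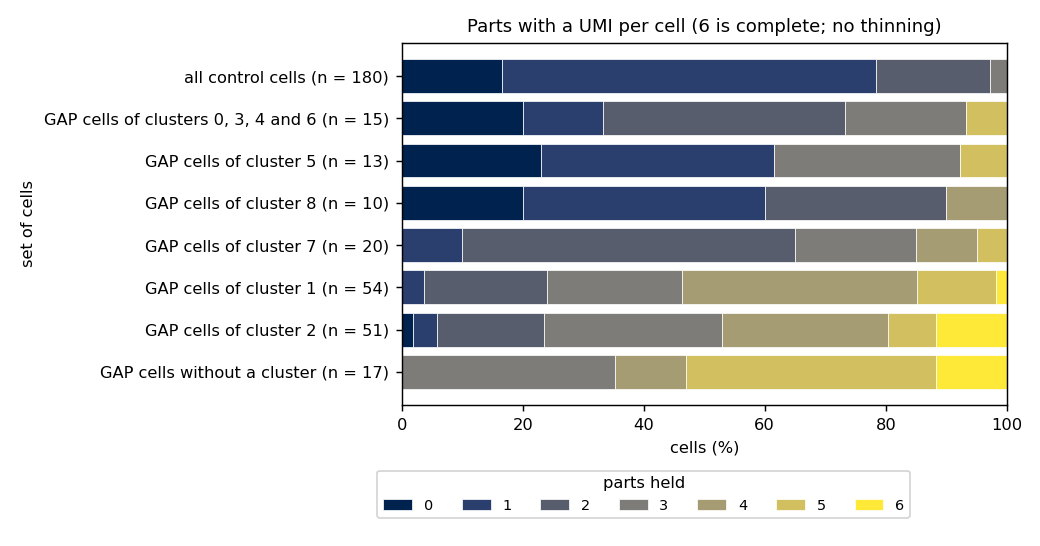
Share of cells (horizontal axis, percent) that hold 0 to 6 of the parts with at least 1 UMI, without thinning, for control cells and for GAP cells by the authors' cluster. The complete set, the yellow end of the bars, appears in clusters 1 and 2 and in the cells without a cluster (1, 6 and 2 cells), and control cells end at 3 parts.

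Nearly complete cells were sorted by the part they lacked. Of the 21 GAP cells that lacked a single part, 12 lacked Lhfpl5 (10 of them of letter C), 6 lacked Cdh23 (4 of letter C) and 3 lacked the pore (1 of letter C). In letter D each of these gaps was found in 2 cells, so the order among them came from letter C. Tmie, Cib2 and Pcdh15 were present in all 21. Of the 21, 7 were among the 17 GAP cells without a cluster, the deepest set, where the part of doublets was not tested. All parts other than Lhfpl5 were held by 8 of those 17 cells, and 2 of the 17 were complete. Among the 70 cells with at least 4 parts, Lhfpl5 was missing in 47, the pore in 23, Cdh23 in 21, Tmie in 5, Pcdh15 in 4 and Cib2 in 1. The parts most often missing here are those with the lowest shares over all GAP cells, Lhfpl5 (15%), Tmc1 (30.6%) and Cdh23 (38.9%).

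Several common incomplete states differed by a single part. Cib2 with Pcdh15 and no other part was found in 24 GAP cells, 5 of them of letter C. Tmie was added to this pair in 21 cells, Cdh23 without Tmie in 13 cells, and Tmie with Cdh23 in 15 cells. Adding the pore to the last of these, so that Lhfpl5 alone was missing, gave the 12 cells described above. These states are ordered by the number of parts and carry no order in time.

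Cells with a sub-assembly of the machinery, which include the 9 complete cells, were counted next. Both cadherins of the tip link were found in 61 GAP cells (33.9%, 12% at 8000 UMIs) and in 1 control cell. Tmc1 with Cib2, which bind each other, was found in 53 GAP cells (29.4%, 12.2% at 8000 UMIs), and the pore with Tmie and Cib2 in 42. Lhfpl5 with Pcdh15, its partner at the tip link, was found in 26 GAP cells (14.4%, 5.36% at 8000 UMIs). The whole channel complex of pore, Lhfpl5, Tmie and Cib2 was in 15 GAP cells, and all 5 other parts, with or without Lhfpl5, in 21. Of these 21 cells, 17 were of letter C and 8 had no cluster. The 5 combinations named here that go beyond the tip link were found in 0 control cells. Those with Lhfpl5 could not be found there, since Lhfpl5 had 0 control UMIs. The others need the pore, which 4 control cells held, so these counts add little to those of the single genes.

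Cells with a rare part usually held the common ones, which most GAP cells held. Of the 55 GAP cells with Tmc1, 53 held Cib2, 50 Pcdh15, 43 Tmie, 30 Cdh23 and 16 Lhfpl5. Of the 27 cells with Lhfpl5, 26 held Pcdh15, 23 Tmie, 23 Cib2, 16 Tmc1 and 14 Cdh23. Over all GAP cells the shares were 81.7% for Cib2 and for Pcdh15, 56.7% for Tmie, 38.9% for Cdh23, 30.6% for Tmc1 and 15% for Lhfpl5. Beside these, Cib2 was in 96.4% of the Tmc1 cells and 85.2% of the Lhfpl5 cells, and Pcdh15 in 90.9% and 96.3%. Tmie was in 78.2% and 85.2%, and Cdh23 in 54.5% and 51.9%. The Tmc1 and Lhfpl5 cells were deeper than the GAP cells as a whole, with medians of 36056 and 37907 UMIs against 28963, and the part of depth in these co-occurrences was not tested.

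The UMIs of Lhfpl5, Cdh23 and Tmc1 were concentrated in few cells. Of the 27 GAP cells with Lhfpl5, 17 held 1 UMI, 3 held 2, 1 held 5 and 6 held 16, 17, 33, 43, 50 and 64. These 6 cells carry 88.8% of the Lhfpl5 UMIs, 4 of them are of letter C and 2 of letter D, and 4 belong to cluster 2. Each of the 6, chosen here after their values were seen, held the complete set. The 5 highest cells carried 82.5% of the UMIs of Lhfpl5, 50.9% of those of Cdh23 and 50.2% of those of Tmc1. For Tmie this share was 17.7%, for Cib2 15.2% and for Pcdh15 11.8%. A pooled level of Lhfpl5 therefore describes a handful of cells: without its highest cell the GAP level was 35.2 CPM, and over cells with a cluster 33.8 CPM.

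**Figure D4:**
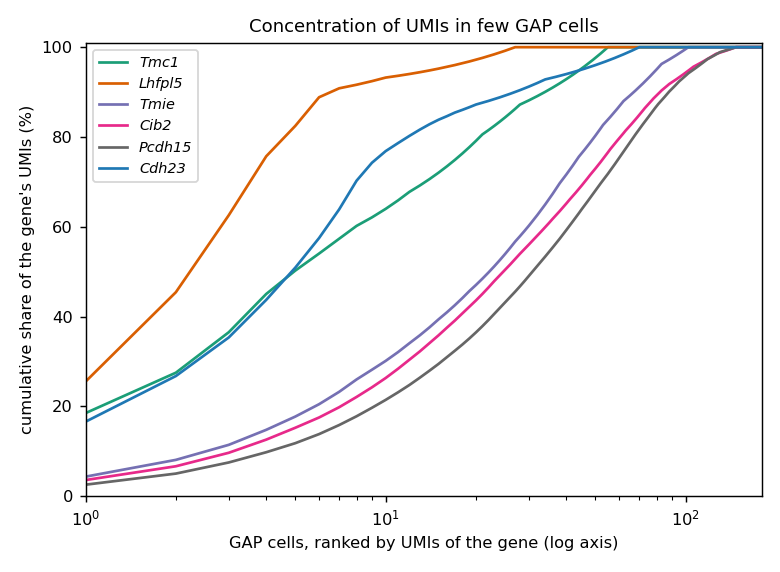
Cumulative share of each gene's UMIs (vertical axis, percent) over the 180 GAP cells, ranked for each gene from most to fewest UMIs (horizontal log axis). The 5 highest cells hold 82.5% of the Lhfpl5 UMIs and 11.8% of the Pcdh15 UMIs, and the curves of Tmc1 and Cdh23 lie between.

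Genes that anchor, assemble or regulate the machinery were listed beside its parts: Ush1c, Ush1g, Myo7a, Myo1c, Tomt, Loxhd1, Atp2b2, Tmem132e, Pkhd1l1 and Piezo2. Of the 7 at 10 CPM or more in a genotype, 4 were at least 2-fold higher in GAP cells and 0 at least 2-fold lower, beside 13% and 6.61% of all genes compared. Their median log2 ratio was 3.15 (the same with the 3 genes at 0 control UMIs set to their bound), against 0.10 for all genes. Tomt, Loxhd1 and Piezo2, at 0 control UMIs, were compared through their GAP level and could not be called lower. Myo7a, the myosin of the upper tip link anchor, had a level of 216 CPM in the GAP cells and 23.5 CPM in the control cells. Loxhd1, a stereocilia protein needed for hearing, was at 29.1 CPM (at least 38.8-fold), Tomt, which carries Tmc proteins to the bundle, at 12.7 CPM (at least 16.9-fold) and Piezo2, a mechanosensitive channel, at 35.6 CPM (at least 47.5-fold), each against 0 control UMIs. Loxhd1 and Piezo2 rested mostly on letter C, with 45.4 and 56.3 CPM there against 9.44 and 10.7 CPM in letter D, and without letter C their bounds were 12.6-fold and 14.2-fold. In letter D, 23 of the 26 Piezo2 UMIs were in 1 cell. Exons of Tomt overlap those of Anapc15 on the other strand over 69.3% of their length, and Anapc15 held 25 UMIs in control and 20 in GAP cells. Ush1c (harmonin), the scaffold that binds Cdh23, was at 162.3 CPM in the GAP cells and 133.5 CPM in the control cells (1.22-fold, 1.09 to 1.36). Myo1c and Atp2b2, the calcium pump of the bundle, had ratios of 1.16 (0.995 to 1.36) and 1.05 (0.934 to 1.19), whose intervals include 1. Ush1g (Sans), the partner of Myo7a and Ush1c in the anchor, and Tmem132e had 0 UMIs in all cells.

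The anchor genes were also compared between the 2 largest GAP clusters. Of 8 at 10 CPM or more, 5 were at least 2-fold higher in cluster 2 (11.6% of all genes compared) and 1 at least 2-fold lower (8.97% of all), with a median log2 ratio of 2.02 (0.05 over all). Tomt, Piezo2 and Pkhd1l1 were under 10 CPM in cluster 1 and could not be called lower. Tomt was at 27.7 CPM in cluster 2 and 2.82 in cluster 1 (9.83-fold, 3.88 to 31.9), Piezo2 at 87.2 and 9.58 CPM (9.11-fold, 5.47 to 16.1) and Myo7a at 452 and 128.5 CPM (3.52-fold, 3.02 to 4.11). Ush1c, the 1 lower gene, was at 100.4 CPM in cluster 2 and 212 in cluster 1, a ratio of 0.474 (0.388 to 0.575), the same direction as Pcdh15 and Tmie.

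The paralogs of the channel genes gave another picture. Of 14 listed (Tmc3 to Tmc8, Cib1, Cib3, Cib4, Lhfpl1 to Lhfpl4 and Lhfp), 5 reached 10 CPM in a genotype, with a median log2 ratio of 0.89 (0.10 for all genes). Of these, Tmc7 and Lhfpl2 were higher in GAP cells by 2-fold or more (13% of all genes), and 0 were lower by as much (6.61% of all). These 2 genes were under 10 CPM in control cells and could not be called lower. Tmc7 was at 25.2 CPM in GAP cells and 0.50 CPM in control cells (2 UMIs), a ratio of 50.3 (13.7 to 420), and Lhfpl2 was at 38.8 and 9.5 CPM (4.08-fold, 2.88 to 5.93). Both were lower in cluster 2 than in cluster 1, Tmc7 at 15.2 against 34.4 CPM and Lhfpl2 at 18 against 72.7 CPM, the opposite of Tmc1 and Lhfpl5. Tmc4 was at 129.3 CPM in the GAP cells and 69.2 CPM in the control cells, and was at 220 CPM in cluster 2 and 69.9 in cluster 1. Cib3, which can stand beside Cib2 in hair cells of the vestibule, had 7 UMIs in GAP cells and 1 in control cells, and Cib1 was at 29.1 and 25.2 CPM, a ratio whose interval (0.891 to 1.49) includes 1. In cluster 2 against cluster 1, of 6 paralogs at 10 CPM or more, Tmc4 and Lhfpl4 were at least 2-fold higher and Tmc7, Cib1 and Lhfpl2 at least 2-fold lower, with a median log2 ratio of -0.55. Lhfpl4, under 10 CPM in cluster 1, could not be called lower. The shares of all genes in this comparison were 11.6% and 8.97%. Tmc3, Cib4 and Lhfpl3 had 0 UMIs in all cells.

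Over the 9 clusters, each taken as 1 pooled level on the scale of log2(CPM + 1), genes most like each part were named by Pearson's r among 9875 genes. The clusters differ in depth and in genotype, so r is a description. Tmc1 was most like Ybx1 (r = 0.945), Cd164l2 (0.943) and Pnpla6 (0.941), and Lhfpl5 most like Xirp2 (0.972), Tmem178b (0.961) and Piezo2 (0.961). Tmie was most like Rpl32 (0.957), Nudt14 (0.953) and Eef1b2 (0.949), and Cib2 most like Psat1 (0.969), Dtna (0.966) and Tnc (0.966). Pcdh15 was most like Dagla (0.980), Trmt112 (0.958) and Tmprss3 (0.953), and Cdh23 most like Sqrdl (0.965) and Dmxl2 (0.917). Among the parts themselves, r of Cdh23 was 0.904 with Tmc1 and 0.906 with Tmie but -0.11 with Pcdh15, its partner in the tip link. Lhfpl5 and Cib2 had an r of 0.860, and Lhfpl5 and Pcdh15, which bind each other, one of 0.07.

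Markers of other cells are given here for the groups compared, and their part in the values above was not tested. The hair cell list summed to 214 CPM in control cells, with Otof, Pvalb, Calb2, Ptprq, Lhx3 and Slc17a8 at 0 UMIs, and to 4218 CPM in GAP cells. No group of native hair cells is among the samples, so levels of the parts in native hair cells were not measured here. The outer hair cell genes Slc26a5 and Ocm summed to 0 CPM in control and 0.745 CPM in GAP cells, with Ocm at 0. Supporting cell markers summed to 10640 CPM in control and 10564 CPM in GAP cells, but S100a1 made up much of both sums (4945 and 7689 CPM). The other 9 genes of this list summed to 5695 and 2875 CPM, and 7 of the 10 were lower in GAP cells, among them Ceacam16 (834 and 53.5 CPM), Sox10 (1439 and 722 CPM) and Gjb2 (1261 and 703 CPM). Beside S100a1, Sox2 (1.75 and 8.01 CPM) and Fgfr3 (12.2 and 40.1 CPM) were higher in GAP cells. In cluster 2 the whole list summed to 10194 CPM with Sox2 at 0 UMIs, against 12577 CPM and all 10 genes in cluster 1. Without S100a1 these sums were 2401 and 3341 CPM. Sox2 was sparse elsewhere too, with 7 UMIs over all control cells and 0 in the control cells of clusters 0, 3 and 6. Neuron markers summed to 0.25 CPM in control cells and 15.7 CPM in GAP cells (1.69 CPM in cluster 1 and 49.2 CPM in cluster 2, from Nefh and Snap25, with Nefl and Tubb3 at 0). Fibroblast markers were at 353 and 144.05 CPM, glial markers at 111.5 and 89.6 CPM, leukocyte markers at 13 and 7.08 CPM, erythroid markers at 0.25 and 93 CPM and endothelial markers, of which Pecam1 alone had UMIs, at 6.0 and 15.5 CPM, control first. The erythroid sum was 170 CPM in letter C and 0.41 CPM in letter D, with 23369 CPM in its highest cell. The highest sum in a GAP cell was 1793 CPM for neuron markers (letter C) and 1351 CPM for endothelial markers (letter D).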

How the data were processed

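The authors' deposited table gives raw exon UMI counts for every gene in every cell, without normalization. Libraries were made with SMART-MATQ, a protocol for single cells, per the labels' protocols. The submitters' processing notes name STAR, HTSeq and mm10. Not given in the sources used here are their versions, whether reads were counted by strand and how UMIs were collapsed. The authors' deposited cluster number of 341 cells was used as given, and 19 cells without one stayed in comparisons of whole genotypes. Titles matched all 360 columns to samples, and 0 pairs of columns were identical.

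For each set, counts were pooled and expressed as CPM. Levels have exact Poisson intervals, ratios exact conditional-binomial intervals and shares Clopper-Pearson intervals (95%). Cells of the labels' 2 genotypes were compared without a test, since no animals are named. A count of 0 allows 3 counts over the set, from which lower bounds of folds are computed. A gene was compared at 10 CPM or more, and called at 2-fold with 1 CPM added. The higher of the 2 levels had to reach 10 CPM, so a gene below it in 1 set could be called in 1 direction only. Expected shares after thinning were computed from the hypergeometric distribution. Genes named are the 7 members, 2 lists (anchors and paralogs), the 3 transgenes, cell type markers, genes that overlap a listed gene, and the 3 genes most like each member at 20 CPM or more in a cluster, predicted genes left out. Of these, 1 hair cell marker and 1 gene most like Cdh23 are not reported here. Members and lists were chosen with earlier results of these data known. Gene positions and exon lengths are from GENCODE M21, matched by gene ID without version. The ratio and thinning steps were tested on simulated data. Python 3.11.15, numpy 2.4.6, scipy 1.17.1, pandas 2.3.3, R 4.3.3 and edgeR 4.0.16 (for TMM factors only) were used.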

Additional observations from a re-analysis of the deposited data

How the results depend on the processing

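No ratio turned its direction under any alternative run, and 48 of 63 alternative values of the 5 ratios and of the Lhfpl5 level lay inside the 95% interval of the reported value. The others were as follows. The Tmie ratio was 7.64 without letter A and 3.48 without letter B, and the Cib2 ratio 25.9 without letter B. The Pcdh15 ratio was 1.07 from mean per-cell CPM and 1.12 after thinning to 8000 UMIs, which is the same mean without the 3 control cells below that depth. The Cdh23 ratio was 49.8 from mean per-cell CPM, 94.2 without letter A, 15.4 without letter B and 103.4 without the cell with most UMIs in each genotype. The Lhfpl5 level was 36.2 CPM from mean per-cell CPM and after thinning, which are the same calculation here, 33.8 CPM over cells with a cluster, 36.1 CPM without letter C, 55.6 CPM without letter D and 35.2 CPM without its highest cell. Median-of-ratios scaling and the omission of letters A or B were not run for Lhfpl5, which has no control UMI. The 9 complete cells became 0 when all 7 genes were asked for, 3.11 and 5.63 expected at 8000 and 16000 UMIs, and 2 without letter C. With 2 UMIs of each part they were 6, without letter D 7, and in 2 alternatives chosen after seeing the data, only cells with a cluster and no cells over 50000 UMIs, 7 each. The count of 1320 genes at least 2-fold higher was 484 with a filter of 50 CPM, 2851 with none and 831 with 10 CPM added. Scaling by TMM or median of ratios shifted all log2 ratios by -0.07 or -0.08. Of 36 alternative shares at equal depth, 18 stayed within the interval of the reported share; the others were at another depth, without thinning or with 2 UMIs asked for. The cause of other shifts was not tested.

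Depth limits each cell's count of parts, since a part without a UMI cannot be called absent. Letters cannot be told apart from genotype, and counting intervals leave out variation between animals. No paired analysis was possible because the samples are single cells without a shared replicate number and no test was made.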
